A study of Arabidopsis thaliana with 3 samples.

Results

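The 835 LDL1:GFP regions around the centromere of chromosome 4 were examined, out of 5928 in the nuclear genome of Arabidopsis thaliana. They were chosen by position, with earlier results of these data known. A region belonged to the set when its midpoint lay from 2 Mb to below 6 Mb of chromosome 4. This span is made of 4 bins of 1 Mb that each hold fewer than 150 protein-coding genes. The data come from chromatin immunoprecipitation followed by sequencing (ChIP-seq). LDL1pro::LDL1:GFP seedlings, in which the LDL1 promoter drives a fusion of LDL1 with green fluorescent protein (GFP) in the Col-0 ecotype, were grown in long days at 22 °C and harvested at 14 days. The ChIP group holds 2 libraries made with an anti-GFP antibody, described as biological replicates, each prepared from pooled ChIP DNA, and the other group is 1 input library of the same line. All plants of the series carried the transgene, so no line without GFP was compared.

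LDL1 is a plant relative of the animal histone demethylase LSD1, an enzyme that removes methyl groups from lysine 4 of histone H3, a mark of active genes. Arabidopsis centromeres are arrays of a short satellite repeat, flanked by heterochromatin that is rich in retrotransposons and kept silent by DNA methylation and methylation of lysine 9 of histone H3. Many transposon-derived loci are annotated there as pseudogenes. The short arm of chromosome 4 also carries ribosomal RNA genes at its end and, in Col-0, an interstitial heterochromatic knob.

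The deposited ChIP regions give a start and an end on TAIR10 and no score, read count or fold enrichment, and they are a single set not separated by replicate. Read depth in the ChIP group is unknown for that reason, and no value below has a replicate error. No test of a difference between groups of samples could be made, and sets of regions are described side by side, with no test behind the differences given. Exact binomial intervals (Clopper-Pearson, 95%) cover counting error only, and neighbouring regions are not independent of each other. Coordinates are counted from 1.

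The span held regions more densely than the remainder of its chromosome. It makes up 21.5% of chromosome 4 and held 60.8% of the 1373 regions there. The density was 209 regions per Mb in the span and 36.9 per Mb in the rest of chromosome 4, which held 538 regions. The rest was uneven, with 139 of its regions from 0 to 1 Mb. Together the 835 regions covered 420.6 kb, or 10.5% of the span, against 1.20% of the rest of the chromosome. The span is 3.36% of the nuclear genome and held 14.1% of all regions and 14.5% of all region bases.

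Along the span the regions formed a broad mound with its high side towards the short arm. The bin from 2 to 3 Mb held 106 regions, that from 3 to 4 Mb held 471, that from 4 to 5 Mb held 202 and that from 5 to 6 Mb held 56. Next to the span, 91 regions lay from 1 to 2 Mb and 9 from 6 to 7 Mb. The end of the short arm, from 0 to 1 Mb, held 139, more than the bins from 2 to 3 and from 5 to 6 Mb. The share of sequence under regions was 7.81% from 2 to 3 Mb, 23.2% from 3 to 4 Mb, 9.47% from 4 to 5 Mb and 1.59% from 5 to 6 Mb. The bin with most regions had the fewest protein-coding genes, 15, while the bins from 2 to 3, 4 to 5 and 5 to 6 Mb had 141, 33 and 128.

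At a resolution of 100 kb, the count ranged over the 40 bins of the span from 0 to 69, with a median of 14. The highest counts were 69 regions from 3 to 3.1 Mb, 66 from 3.2 to 3.3 Mb and 63 from 3.6 to 3.7 Mb. All 13 bins of 100 kb with at least 30 regions lay from 2.9 to 4.3 Mb. On the short-arm side the count rose over a few bins. There were 46 regions in the 8 bins from 2 to 2.8 Mb, with 9 in the last of these. The bin from 2.8 to 2.9 Mb held 27, the next 33 and that from 3 to 3.1 Mb held 69. On the long-arm side the count declined unevenly over a longer distance. It was 31 from 4 to 4.1 Mb, 14 from 4.1 to 4.2 Mb, 30 from 4.2 to 4.3 Mb, 28 from 4.7 to 4.8 Mb and 19 from 5 to 5.1 Mb. The 8 bins from 5.2 to 6 Mb held 28 regions in all. The bins from 2.8 to 4.6 Mb together held 672 regions, or 80.5% of the set.

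**Figure D1:**
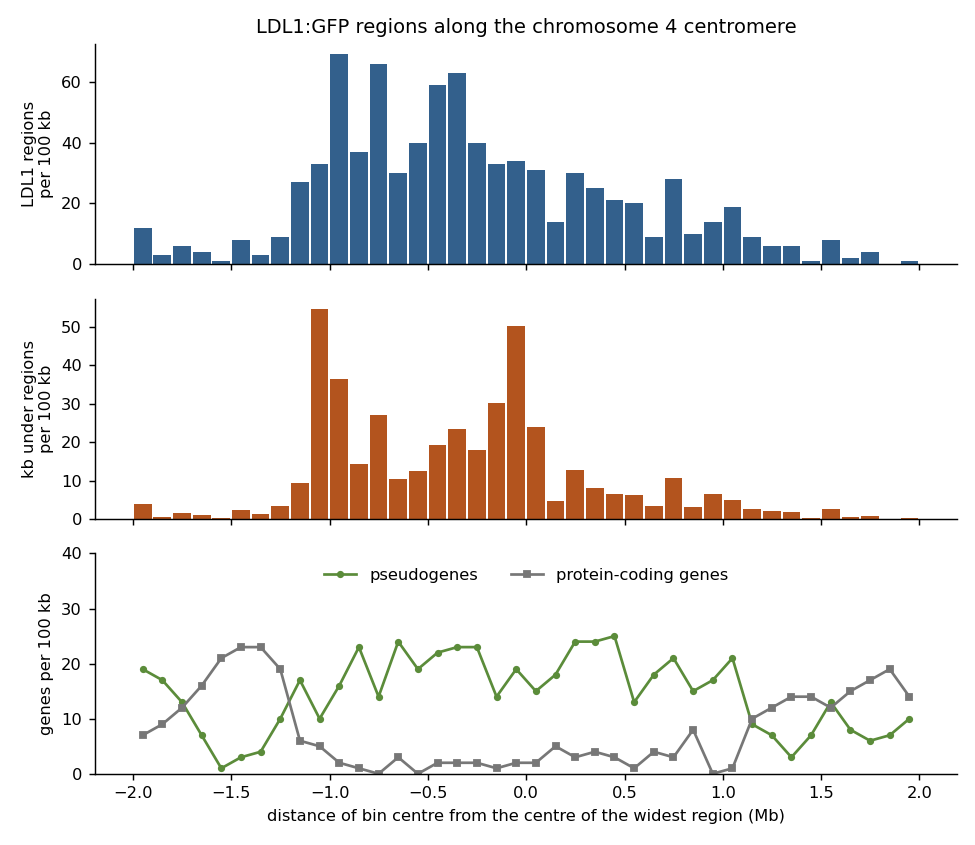
LDL1:GFP regions per 100 kb (top), kb of sequence under regions per 100 kb (middle), and annotated pseudogenes and protein-coding genes per 100 kb (bottom), each against the distance in Mb from the centre of the widest region of the span. The number of regions peaks at 69 per 100 kb about 1 Mb on the short-arm side of the widest region, whereas the covered sequence has 2 separate peaks, of 54.5 and 50.2 kb per 100 kb, at the wide blocks.

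The covered sequence was distributed otherwise than the number of regions. The bin from 2.9 to 3 Mb held 33 regions and 54.5 kb under them, and the bin from 3.9 to 4 Mb held 34 regions and 50.2 kb. The bin from 3 to 3.1 Mb, with the most regions, had 36.3 kb. From 3.4 to 3.5 Mb, 40 regions covered 12.5 kb. The bins from 2.9 to 3 and from 3.9 to 4 Mb held 6 and 3 regions above 1 kb. The bin from 3.8 to 3.9 Mb also held 6 such regions, and that from 3.4 to 3.5 Mb held 0.

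Most regions of the span were narrow. Their median width was 312 bp (interquartile range 244 to 417.5 bp), and the narrowest spanned 163 bp. The median was 299 bp over the other regions of the genome. In the span, 635 regions (76.0%) were over 200 and up to 500 bp wide, 115 (13.8%) were over 500 and up to 1000 bp, and 57 (6.83%) were 200 bp or less. Regions above 1 kb numbered 28, or 3.35% of the set, and held 33.2% of its bases. The 10 widest alone held 105.9 kb, or 25.2% of the bases.

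By bin, the median width was 312.5 bp from 2 to 3 Mb, 318 bp from 3 to 4 Mb, 312.5 bp from 4 to 5 Mb and 260.5 bp from 5 to 6 Mb. The wide regions were not spread in the same way. Of the 28 above 1 kb, 6 lay from 2 to 3 Mb, 19 from 3 to 4 Mb, 3 from 4 to 5 Mb and 0 of 56 from 5 to 6 Mb, where the widest region spanned 738 bp.

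Wide regions were set beside those of the rest of the genome by class of width. Regions over 1000 and up to 5000 bp made up 2.28% of the set in the span (19 regions) and 5.20% of the other regions of the genome (265 regions), and held 8.94% of the bases in the span against 20.9% elsewhere. Regions above 5 kb made up 1.08% (9 regions) against 0.628% (32 regions), and held 24.3% of the bases against 13.8%. Most bases of wide regions in the span were in pieces above 5 kb, of which there were 9.

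The gene-poor bins of the other chromosomes give a frame for these values. The density of 209 regions per Mb on chromosome 4 stood beside 121 per Mb on chromosome 1, 140 on chromosome 2 without the bin of its mitochondrial insertion, 100.4 on chromosome 3 and 159 on chromosome 5. The share of sequence under regions was 10.5% on chromosome 4, against 6.14% on chromosome 1, 5.06% on chromosome 2, 6.55% on chromosome 3 and 10.8% on chromosome 5. Regions above 1 kb made up 3.35% on chromosome 4, against 8.07%, 2.15%, 11.8% and 12.6% on chromosomes 1, 2, 3 and 5. Chromosome 4 had the highest count per Mb of the 5, with chromosome 5 covering a like share of sequence by fewer and wider regions. Input covered 98.2% of the sequence in the chromosome 4 bins, and 93.3%, 98.1%, 97.9% and 97.7% in those of chromosomes 1, 2, 3 and 5.

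**Figure D2:**
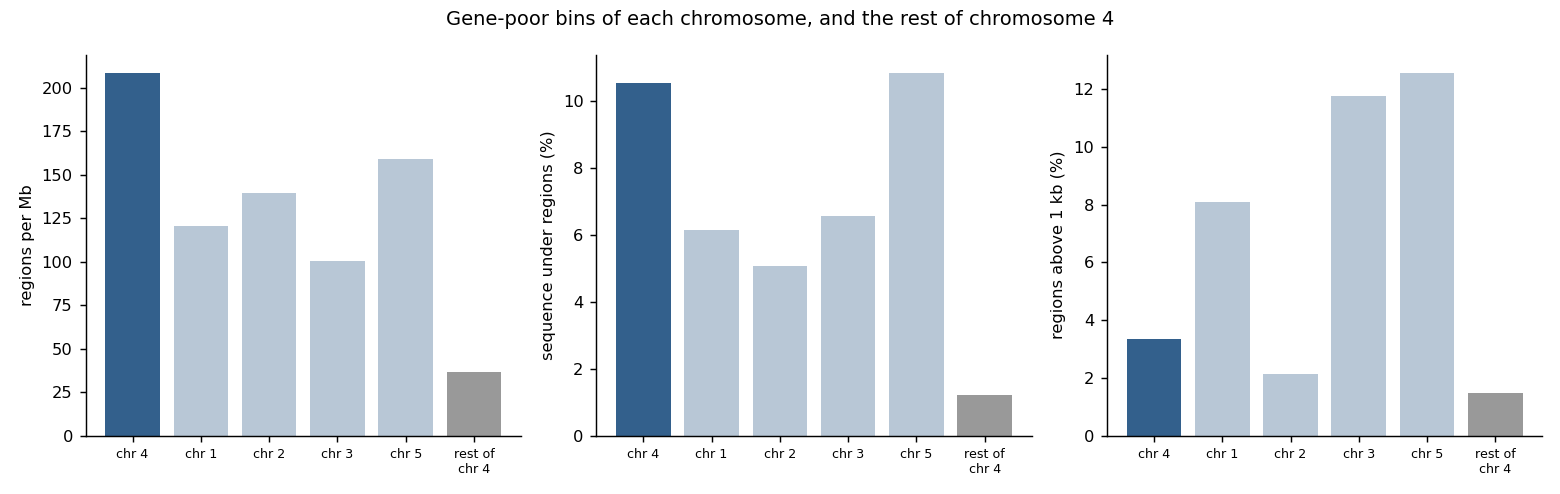
Regions per Mb (left), percent of sequence under regions (middle) and percent of regions wider than 1 kb (right) in the gene-poor bins of chromosome 4, in those of chromosomes 1, 2, 3 and 5, and in the rest of chromosome 4. Chromosome 4 stands at 209 regions per Mb and 10.5% of sequence, with 3.35% of regions above 1 kb, and chromosome 5 at 159 per Mb, 10.8% and 12.6%. Bars are single values without replicate error.

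The regions lay close to each other. The distance between neighbouring regions of the set had a median of 1132.5 bp (interquartile range 304 to 3549.5 bp), with a smallest value of 2 bp. A further region lay within 1 kb of 535 of the 835 regions (64.1%), against 29.7% of the 538 regions in the rest of chromosome 4. In the gene-poor bins of chromosomes 1, 2, 3 and 5 this share was 77.0%, 49.6%, 63.5% and 76.0%, so that such closeness was shared with other centromeres. It was 62.6% from 0 to 1 Mb of chromosome 4, outside the span. By bin of the span this share was 55.7% from 2 to 3 Mb, 72.2% from 3 to 4 Mb, 61.4% from 4 to 5 Mb and 21.4% from 5 to 6 Mb, in the same order as the density. Distances under 200 bp numbered 162 of 834 (19.4%), and 51 were under 50 bp. Only 1 of these 51 short breaks held a base without input coverage. The longest stretch without a region ran for 172.0 kb, from 5772543 to 5944505.

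When regions at most 1 kb apart were joined, the set became 450 chains, of which 300 were single regions, 86 were pairs and 64 held 3 or more. Those 64 chains held 363 regions, or 43.5% of the set. Chains of 10 or more numbered 10. The largest by count held 16 regions each and lay close to each other. One, from 3011995 to 3022036, had widths from 176 to 994 bp and breaks with a median of 183 bp, and 66.9% of its length is annotated as pseudogene. The other, from 3038783 to 3047752, had widths from 232 to 933 bp and breaks with a median of 79 bp, and none of its length (0%) is annotated as pseudogene. Such chains were dense without any single wide region, at 66.1% and 79.9% of their length under regions.

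Most regions above 5 kb lay in 2 blocks, near 2.9 and 4.0 Mb. Each was delimited as the regions joined by breaks of at most 5 kb around the widest region there. Together the blocks held 89 regions, 10.7% of the set, and 29.9% of its bases. They held 7 of the 9 regions above 5 kb, which follows in part from delimiting them around the widest regions. Of the 28 regions above 1 kb, 17 lay outside the blocks, or 2.28% of the 746 regions there. The median width outside was 305.5 bp.

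The block near 2.9 Mb ran from 2916811 to 2983537, or 66727 bp, and held 29 regions over 79.9% of its length. Its core consisted of 3 neighbouring regions, of 5426 bp (2920330 to 2925755), 12751 bp (2925899 to 2938649) and 18043 bp (2938664 to 2956706). The last 2 of these were separated by 14 bp, and 36.2 kb lay in the 3. No annotated gene lay under any of the 3. Beyond them the regions continued over AT4G05612, a protein-coding locus without a name in the gene table, of which 94.6% of 4651 bp lay under 5 regions, the widest of 3547 bp (2961714 to 2965260). Of all protein-coding genes in the span it had the most bases under regions. By annotation, 88.5% of the region bases in the block lay in no gene, 8.25% in a protein-coding gene and 3.25% in a pseudogene.

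The block near 4.0 Mb ran from 3902227 to 4043101, or 140875 bp, and held 60 regions over 51.5% of its length. Its widest regions, of 20943 bp (3990856 to 4011798), 18636 bp (3965434 to 3984069), 5655 bp (3984086 to 3989740) and 5653 bp (3950383 to 3956035), held 50.9 kb. The second and the third were separated by 16 bp. With regions joined only over breaks of at most 1 kb, the block shrank to 50266 bp and 10 regions, from 3961533 to 4011798, with 96.1% of its length under regions, while the block near 2.9 Mb became 49464 bp and 15 regions, with 95.1%. The cores of both blocks were thus of like length and nearly unbroken.

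Annotation in the block near 4.0 Mb was that of pseudogenes and unannotated sequence. Within its limits lie 30 pseudogenes, of which 25 were overlapped by a region, 1 protein-coding gene that was overlapped and 1 non-coding RNA gene that was not. Of all pseudogenes, 69.5% were overlapped from 3 to 4 Mb, 43.7% in the span and 21.0% in the nuclear genome. For protein-coding genes the share was 13.2% in the span and 7.68% in the nuclear genome. The block was delimited as a chain of regions, which raises the counts inside it by itself. The pseudogenes AT4G06712 (1869 bp), AT4G06714 (2481 bp) and AT4G06716 (264 bp) lay wholly under the widest region, which still had 78.0% of its length in no gene. AT4G06708, 2712 bp long, held 5 regions over 63.8% of its length but made up 1.09% of the width of the region of 18636 bp, AT4G06710 (411 bp) lay wholly under the region of 5655 bp, and AT4G06700 reached into that of 5653 bp. Over the whole block, 73.5% of region bases lay in no gene and 24.7% in a pseudogene. The nearest protein-coding gene to the widest region was AT4G06744, at a distance of 58750 bp.

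**Figure D3:**
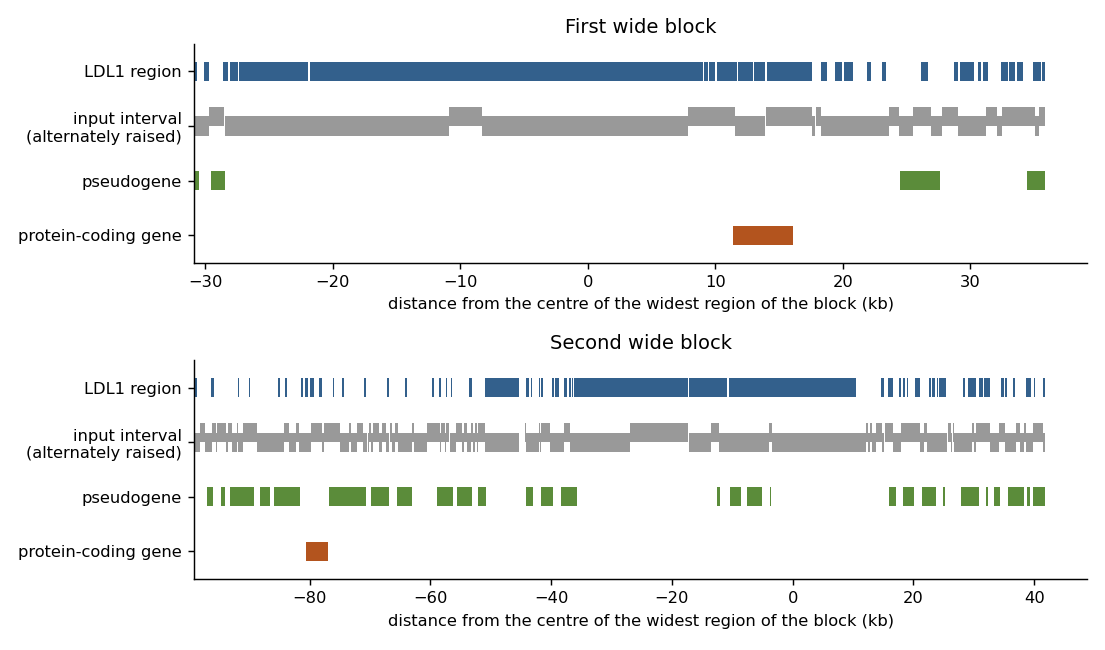
Maps of the first (near 2.9 Mb) and second (near 4.0 Mb) wide block, with the distance in kb from the centre of the block's widest region on the horizontal axis and rows for LDL1:GFP regions, input intervals (every second one raised, so that breaks show), pseudogenes and protein-coding genes. The wide regions lie over unbroken input intervals of up to 17563 bp in the first block and 15475 bp in the second, and mostly over sequence without an annotated gene.

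Of the 10 widest regions, 3 lay outside the blocks. A region of 7496 bp (3869635 to 3877130) held AT4G06666, 2808 bp long and wholly covered, and reached AT4G06664, with 64.3% of its width in pseudogenes. Close to it, a region of 3894 bp (3864768 to 3868661) overlapped AT4G06660, with 47.1% of its width in pseudogenes. A region of 7425 bp (3054289 to 3061713) held 3 short RNA loci of the class misc_RNA, AT4G05175, AT4G05185 and AT4G05195, each wholly covered, and overlapped the pseudogene AT4G06477, with 9.95% of its width in pseudogenes. The 7 regions in the blocks had between 0% and 22.0% of their width in pseudogenes.

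The input intervals carry no read count, and their making is not stated. They were short, did not overlap each other and covered nearly all of the sequence, and are read here as stretches where input reads were placed, with no depth. In the span 4912 intervals had a median length of 503 bp. They covered 99.3% of the bases under regions and 98.1% of the other bases of the span. Every base was covered in 623 of the 835 regions (74.6%). Coverage was below 90% of the width in 12 regions, with a lowest value of 76.8%, and no region (0 of 835) was without input.

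Breaks in the input were fewer under LDL1:GFP regions, and fewest under wide ones. Input intervals began 0.590 times per kb under regions and 1.30 times per kb in the other sequence of the span. The rate was 0.781 per kb under regions of up to 500 bp, 0.709 per kb under those over 500 and up to 1000 bp and 0.243 per kb under those above 1 kb. In each bin of 1 Mb it was lower under regions than beside them: 0.410 against 1.18 per kb from 2 to 3 Mb, 0.635 against 1.34 from 3 to 4 Mb, 0.584 against 1.37 from 4 to 5 Mb, and 0.820 against 1.32 from 5 to 6 Mb. The continuity of input thus moved with the regions and with their width, and its part in the calling of the regions was not tested.

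The longest unbroken input intervals coincided with the wide regions. Of the 10 longest in the span, 7 touched one of the 10 widest regions, and 7 of the 10 widest regions touched one of the 10 longest intervals. The longest, of 17563 bp (2919217 to 2936779), had 97.9% of its length under 4 regions. The next, of 16122 bp (2939413 to 2955534), lay under 1 region over 100% of its length, and that of 15475 bp (3997959 to 4013433) had 89.4% under the widest region. The reverse did not hold for every long interval: one of 6592 bp (2578340 to 2584931) had 5.49% under a region, and one of 5754 bp (5374072 to 5379825) had none (0%). The median of the longest interval touching a region was 3937.5 bp for regions above 1 kb, 1921 bp for those over 500 and up to 1000 bp and 1671 bp for those of up to 500 bp. A wide region can touch more intervals, which raises this value by itself. Copy number of the sequence was not measured.

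**Figure D4:**
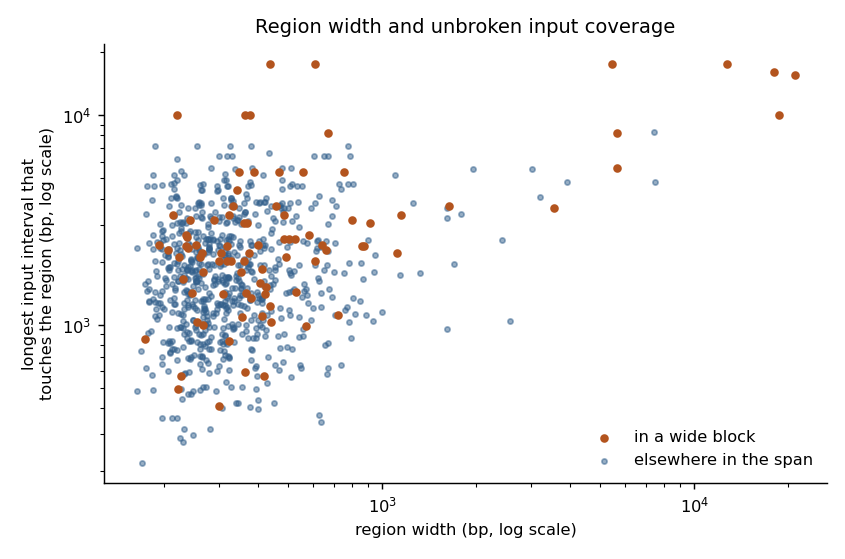
Width of each of the 835 regions (horizontal, log scale) against the length of the longest input interval that touches it (vertical, log scale), with the 89 regions of the wide blocks in orange and the other 746 in blue. The widest region, of 20943 bp, touches an interval of 15475 bp, and the median interval is 3937.5 bp for regions above 1 kb and 1671 bp for those of up to 500 bp.

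The wide regions met long runs without input in 2 places. The longest uncovered runs of the span were both 989 bp long, and the next was 213 bp. One, from 3053306 to 3054294, ended at the start of the region of 7425 bp (3054289). The other, from 3956029 to 3957017, began at the end of the region of 5653 bp (3956035). The other 9 uncovered runs above 100 bp had no region within 20 bp. What lies in the 2 long runs was not examined.

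About 1 in 2 regions of the span had its midpoint in a pseudogene. A pseudogene was touched by 473 of the 835 regions (56.6%), and 368 (44.1%) lay wholly inside one. Sequence without an annotated gene was touched by 425 (50.9%). Of the 835 midpoints, 426 lay in a pseudogene (51.0%, 95% interval 47.6 to 54.5%), and 328 in sequence with no gene and more than 1 kb from any protein-coding gene (39.3%, 36.0 to 42.7%). Protein-coding genes held 43 midpoints (5.15%, 3.75 to 6.87%), the 1 kb on either side of them 36 (4.31%, 3.04 to 5.92%), and non-coding RNA genes 2 (0.240%). The sequence of the span itself was divided otherwise, with 31.9% in pseudogenes, 39.6% unannotated, 13.6% in protein-coding genes, 14.3% within 1 kb of them and 0.621% in non-coding RNA genes. In these classes the 1 kb beside a protein-coding gene came first, also where it lay inside another gene. Counted without precedence, 16.6% of the span lay in protein-coding genes and 32.8% in pseudogenes. With gene bodies first, 6.11% of midpoints lay in protein-coding genes.

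The picture shifted when bases were counted in place of midpoints. Unannotated sequence then held 52.2% of the region bases and pseudogenes 40.2%. Without the wide blocks, a split made with the results known, these shares were 41.3% and 50.8%. Of the 28 regions above 1 kb, 17 had their midpoint in unannotated sequence and 8 in a pseudogene. The median width by class was 308 bp on pseudogenes, 316.5 bp on unannotated sequence, 282 bp in protein-coding genes and 302.5 bp beside them.

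**Figure D5:**
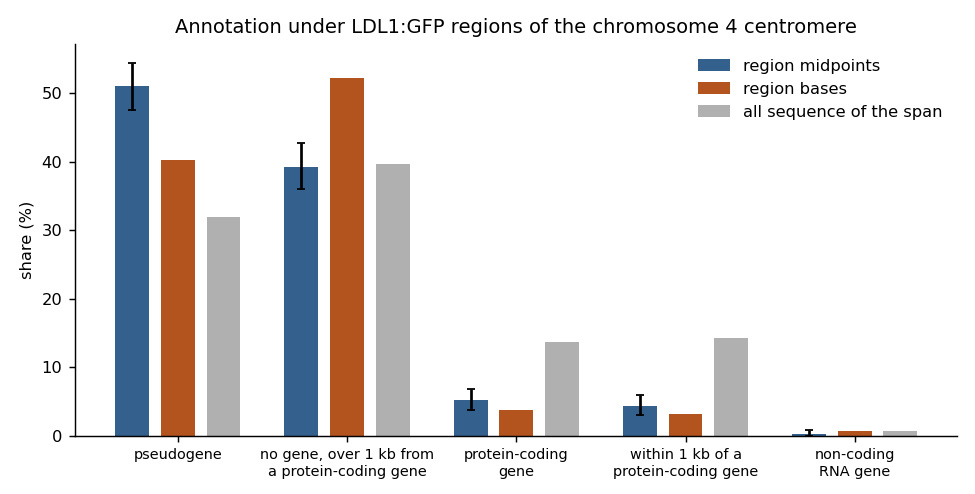
Share in percent of region midpoints (blue, with exact 95% binomial intervals for counting error), of region bases (orange) and of all sequence from 2 to 6 Mb (grey) in 5 classes of annotation. Pseudogenes hold 51.0% of midpoints and 31.9% of the sequence, unannotated sequence holds 52.2% of region bases and 39.6% of the sequence, and protein-coding genes hold 5.15% of midpoints and 13.6% of the sequence. The 1 kb beside a protein-coding gene is counted first, also where it lies inside another gene.

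Because genes and regions both vary along the span, the classes were also set against each other within each bin, as midpoints per Mb of sequence of the class. Pseudogene sequence held 175 midpoints per Mb from 2 to 3 Mb, 541 from 3 to 4 Mb, 285 from 4 to 5 Mb and 87.6 from 5 to 6 Mb. Unannotated sequence held 139, 412, 160 and 53.7 per Mb in the same 4 bins. Protein-coding sequence held 71.7, 356, 133 and 48.6 per Mb, the second of these from only 8 midpoints in 22.5 kb of sequence and the third from 6. In all 4 bins pseudogene sequence had the highest density of midpoints of these 3 classes, and protein-coding sequence the lowest. By bases, pseudogenes did not come first in every bin. Regions covered 17.7% of unannotated and 5.80% of pseudogene sequence from 2 to 3 Mb, and 26.1% and 23.1% from 3 to 4 Mb. These shares were 8.40% and 10.4% from 4 to 5 Mb, and 1.57% and 2.48% from 5 to 6 Mb. Over the whole span the densities of midpoints were 334 per Mb in pseudogenes and 79.0 per Mb in protein-coding genes, a wider ratio than in any 1 bin.

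Counted as genes, 253 of the 579 pseudogenes of the span (43.7%, 95% interval 39.6 to 47.8%) were overlapped by a region by at least 1 bp, against 21.0% of the 4843 pseudogenes of the nuclear genome. From 3 to 4 Mb the share was 69.5%, 137 of 197. It was 25.7% from 2 to 3 Mb, 37.9% from 4 to 5 Mb and 19.8% from 5 to 6 Mb, so the bins at the borders of the span stood near the share of the genome. More than 1 region lay on 123 pseudogenes (21.2%), against 7.97% over the genome. In the span 9 pseudogenes lay wholly under regions (1.55%), a share close to the 1.47% over the genome.

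Longer pseudogenes held regions more often, but not over a greater part of their length. A region overlapped 11 of 44 pseudogenes of up to 500 bp, 28.6% of 105 of up to 1000 bp, 35.4% of 147 of up to 2000 bp, 52.1% of 188 of up to 4000 bp and 65.3% of 95 above 4000 bp, each class starting where the one before it ends. The part of their bases under regions was 16.8%, 13.6%, 13.1%, 13.0% and 13.1% in these 5 classes. Overlapped pseudogenes had a median length of 2662 bp, and the others 1451 bp.

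The pseudogenes with most bases under regions lay mainly from 3 to 4 Mb. AT4G06656 had 4863 of 8466 bp under 6 regions, the widest overlap being with a region of 1957 bp (3841819 to 3843775). AT4G05638 had 4090 of 6135 bp under 11 regions, the highest number on any gene of the span. AT4G06506 followed with 3658 of 5694 bp under 5 regions, AT4G06485 with 2867 of 5685 bp under 5, AT4G06597 with 2558 of 4879 bp under 7 and AT4G06566 with 2508 of 4602 bp under 6. AT4G08078, from 4 to 5 Mb, had 84.4% of its 3820 bp under 5 regions. The gene table gives none of these a name, and the transposon family of each was not examined.

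Protein-coding genes of the span held regions less often than its pseudogenes, at 42 of 317 (13.2%, 95% interval 9.72 to 17.5%), against 7.68% of the 27444 protein-coding genes of the nuclear genome. By bin the counts were 18 of 141 from 2 to 3 Mb, 5 of 15 from 3 to 4 Mb, 6 of 33 from 4 to 5 Mb and 13 of 128 from 5 to 6 Mb. With 1 kb on either side included, 67 of 317 held a region (21.1%), against 12.2% over the genome. Of the 835 midpoints, 18 (2.16%) were within 250 bp of the start or end of a protein-coding gene, as was 7.31% of the sequence of the span. By bin these shares were 5.66% of midpoints and 12.8% of sequence from 2 to 3 Mb, 0.849% and 1.49% from 3 to 4 Mb, 1.98% and 3.21% from 4 to 5 Mb, and 7.14% and 11.8% from 5 to 6 Mb. The median distance to such an end was 18674.5 bp. That distance was 3549.75 bp from 2 to 3 Mb and 2208.5 bp from 5 to 6 Mb, against 23133 bp from 3 to 4 Mb and 19497 bp from 4 to 5 Mb.

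After AT4G05612, the protein-coding genes with most bases under regions were AT4G06688, with 1301 of 3745 bp, and UBQ10, with 1043 of 2332 bp. The polyubiquitin gene UBQ10 is strongly expressed in most tissues and encodes ubiquitin units in tandem. It was overlapped by 2 regions, the wider of 709 bp (2719166 to 2719874), which together covered 44.7% of it. The unnamed loci AT4G06534 (56.9% of 1628 bp), AT4G08760 (9.70% of 6395 bp) and AT4G08400 (31.3% of 1769 bp) held 2 regions each. GSL1, a callose synthase, also held 2, over 8.84% of its 6349 bp. ACS11, an enzyme of ethylene synthesis, held 1 region of 418 bp (4888448 to 4888865).

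A list of 27 genes with known functions near the centromere of chromosome 4 was followed whatever its result, and 26 of them lay in the span (the invertase gene CINV2 lies outside it). Of the 26, 7 were overlapped by a region and 10 held one within 1 kb. Over all protein-coding genes of the nuclear genome, 7.68% were overlapped and 12.2% held a region within 1 kb, and over those of the span 13.2% and 21.1%. The list was drawn up with earlier results of these data known. All 26 lie from 2 to 3 or from 5 to 6 Mb, so the list says nothing of the bins between. From 2 to 3 and from 5 to 6 Mb, 12.8% and 10.2% of protein-coding genes were overlapped, and 17.0% and 16.4% held a region within 1 kb. The groups below have 3 to 9 members, and each count is to be read against these shares.

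In ubiquitin and protein turnover, 3 of 4 genes were overlapped. Besides UBQ10, the polyubiquitin gene UBQ11 held a region of 282 bp (2588396 to 2588677) and DDB1A, an adaptor of CUL4 ubiquitin ligases, a region of 251 bp (2746198 to 2746448) within its 6901 bp. Polyubiquitin genes are close to each other in sequence, and whether reads were shared between UBQ10 and UBQ11 was not examined. FBW2, an F-box protein, lay 11775 bp from the nearest region.

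In transcription and development, 1 of 5 genes was overlapped and 3 of 5 held a region within 1 kb. GTA2, an SPT5-like transcript elongation factor, held a region of 226 bp (5290051 to 5290276). KNAT1, a homeobox regulator of the shoot meristem, had a region of 323 bp at a distance of 723 bp, and the factor MYB74 had one of 467 bp at 369 bp. MED16, a subunit of the Mediator complex, lay 13003 bp and MYB6 lay 48180 bp from a region.

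In signalling, 1 of 5 genes was overlapped: MEKK3, a kinase of the MAP kinase cascade, by a region of 256 bp (5386251 to 5386506). The same region lay 844 bp from its neighbour MEKK2, whereas MEKK1 lay 15984 bp from the nearest region. The calcium-dependent kinase CPK21 and the 14-3-3 protein gene GRF1 lay 2605 and 2667 bp away.

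In metabolism, transport and growth, 2 of 9 genes were overlapped. They were SULTR1;1, a high-affinity sulfate transporter, by a region of 201 bp (5500560 to 5500760), and EXO, which promotes cell expansion, by one of 267 bp (5740786 to 5741052). The others, ARGAH1, ARGAH2, ISA3, NDPK1, ENT3, ABCI8 and ATK5, lay from 9468 to 26354 bp from a region. In light and flowering, 0 of 3 genes held a region within 1 kb: the blue-light receptor CRY1 lay 4525 bp, PCFS4 27594 bp and FBH2 74769 bp from the nearest.

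Non-coding RNA genes were overlapped in 8 of 96 cases (8.33%), against 6.43% of the 5612 in the nuclear genome. From 3 to 4 Mb, 5 of 6 were, among them the 3 misc_RNA loci under the region of 7425 bp. A tRNA gene, AT4G08345, lay wholly under a region of 616 bp (5267812 to 5268427).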

How the data were processed

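The authors' deposited files give start and end coordinates and no measured value: 1 set for the ChIP group, not separated by replicate, and 1 for the input. Per the submitters' processing notes, Bowtie, SICER and the build TAIR10 were used, with neither versions nor roles stated. How repeated reads were placed, how the replicates were combined and how regions were called is not given in the sources used here. Regions in repeats depend on these steps. Groups came from sample titles.

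Gene names, biotypes and overlaps came from a RefSeq table for TAIR10.1 (37899 nuclear genes), taken to share the nuclear chromosomes of TAIR10. Transcribed pseudogenes counted as pseudogenes, and all other non-coding biotypes as non-coding RNA genes. Midpoint classes were assigned in the order: within 1 kb outside a protein-coding gene, protein-coding gene, non-coding RNA gene, pseudogene, unannotated. The comparison bins hold fewer than 150 protein-coding genes.

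Named genes are those under the 10 widest regions, the 8 pseudogenes and 8 protein-coding genes with most bases under regions, and 27 listed genes. AT4G06744, AT4G08345 and those few loci that complete a count were chosen after their values were seen. Members and lists were chosen with earlier results of these data known. No test was run, and planned promoter and motif counts were not made, since genome sequence, strand and transposon families were not used here. Interval functions matched brute force in 50 of 50 simulated sets. Tables were made in Python 3.11.15 with pandas 2.3.3 and numpy 2.4.6, exact intervals with scipy 1.17.1, and plots with matplotlib 3.10.9.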

Additional observations from a re-analysis of the deposited data

How the results depend on the processing

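Under the alternatives, 29 values stayed within the counting interval (shares) or within 1.5 times (counts and lengths), and 14 moved further. Class shares of bases were set against the interval of the midpoint share, which does not measure the spread of a share of bases. The number of regions was 835 by any overlap and by full containment, and 673 with regions closer than 200 bp joined. Counting only regions as wide as the genome-wide median or wider, the density was 113 per Mb. The share of bases in regions above 1 kb was 15.3% without the wide blocks and 46.2% with regions closer than 200 bp joined. The share of regions near another was 48.6% at 500 bp and 91.1% at 5 kb, and that of regions covered by input was 98.6% at 90% of the width. By bases, pseudogenes held 40.2% and unannotated sequence 52.2%. Without the wide blocks, protein-coding genes held 3.46% and non-coding RNA genes 0.893% of bases. Pseudogenes were overlapped in 39.2% of cases by at least 200 bp and in 9.33% over at least 50% of their length, and protein-coding genes with 1 kb on either side in 21.1%. The block near 4.0 Mb was 50266 bp long with breaks of at most 1 kb. Class shares without the wide blocks, joining for the share of wide bases and the 1 kb block breaks were chosen after seeing the data. Promoter windows were not run. No paired analysis was possible because the regions are 1 set without replicates, and no replicate could be left out.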

Other observations

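Long runs without input, as at the ends of the wide regions at 3054289 and 3956035 of chromosome 4, were looked up over the whole genome after these were seen. Leaving out those 2, there were 21 runs above 500 bp in the nuclear genome. Of the 21, 9 had an LDL1:GFP region within 20 bp, in 5 cases one above 1 kb. Regions covered 2.43% of the nuclear sequence, and 5.06% to 10.8% of the gene-poor bins of the other chromosomes. The share of sequence within 20 bp of a region was not computed, and a link between runs and regions was not tested. What these runs hold was not examined.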
